A study of Brassica napus with 12 samples.

Results

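The regions described here are stretches of H3K27me3 that lie in windows of the *Brassica napus* genome with few bases of H3K4me3. Sequences 1 to 19 of the deposited peak lists were divided into 869 windows of 1 Mb, and the 86 windows (9.90%) with the fewest bases under H3K4me3 peaks of any library are called poor windows. Member regions were selected by position alone. They are the merged H3K27me3 regions (peaks of the 6 H3K27me3 libraries joined where they overlapped) with their midpoint in a poor window, and they numbered 390 of 29441, or 1.32%. The files list peaks of sequenced immunoprecipitated chromatin (ChIP-seq) from plants of HZ62, an oilseed rape hybrid labelled WT, grown under 16 h of light at 22 °C and 8 h of dark at 18 °C. The tissues were seedlings of 2 weeks, whose titles call them leaf, flower buds (written flower bug in the labels) under 2 mm, and siliques, the seed pods, of 3 to 5 cm. Each tissue had 2 libraries with an antibody against H3K27me3 and 2 with one against H3K4me3, 12 in all. No label ties the libraries to separate plants, so p-values here speak only for the spread among these libraries, perhaps a technical one. The lists hold no genes and no matching annotation was used, and each region is given by its position in the files' build. Sequence numbers are the final digits of the identifiers used in the files.

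H3K27me3 is laid down by Polycomb repressive complex 2 and marks silent genes in plants, many of them regulators of development. H3K4me3 sits at the starts of transcribed genes, so its peaks trace where active genes lie. In plant genomes long stretches with few active genes are typical of the chromatin around centromeres, where transposons dominate and repression relies mainly on DNA methylation and H3K9me2. H3K27me3 in plants is found mostly along single genes in the gene-bearing parts of chromosome arms.

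After filtering, the seedling H3K27me3 libraries held 3647059 and 3479885 fragments (replicates 1 and 2). The flower bud libraries held 11513204 and 10929797, and the silique libraries 7441109 and 2654588. H3K4me3 libraries held 8609548 to 14339594. A missing peak means that none was called at that depth, and depth differed by tissue. Values per Mb use the full window length, and assembly gaps or sequence where reads cannot be placed were not taken into account. Since whole tissues were used, fewer cells with the mark and less of the mark per cell cannot be told apart.

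The poor windows held between 0 and 15484 bp of merged H3K4me3, with a median of 7774.5 bp, against a median of 54620 bp in the other 783. These values chose the windows. Just inside the limit were a window of sequence 4 from 7000001 to 8000000, with 15437 bp and 1 member, and the short last window of sequence 17, with 15484 bp and 2 members. Just outside were windows of sequence 18 from 15000001 to 16000000, with 15521 bp and 3 H3K27me3 regions, and of sequence 11 from 42000001 to 43000000, with 15620 bp and 36. The pair outside the limit thus differed widely in H3K27me3 at nearly the same H3K4me3. Windows were ranked by bases and not by density, and 5 of the poor windows are the short ends of sequences. In the 81 full poor windows H3K4me3 covered at most 15.4 kb per Mb, and these windows held 359 members. In the short ones it covered 8.70 kb per Mb on sequence 7, 13.0 on sequence 3 and 15.5 on sequence 1, but 62.1 on sequence 12, with 13 members, and 153.1 on sequence 17, so the last 2 were not sparse in H3K4me3 for their length.

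Poor windows lay next to each other. They formed 37 runs on 18 of the 19 sequences, with 70 windows in the 21 runs of 2 or more. The longest run, on sequence 3 from 33000001 to 40864567, had 8 windows and 50 members. Of the 86 windows, 65 had their midpoint between 20% and 80% of the sequence's length, a range that held 59.4% of all windows. *B. napus* carries an A and a C subgenome from its diploid ancestors. Taken in the order A then C, the chromosomes of the Da-Ae assembly had extents that correlated with those of sequences 1 to 19 (Pearson r = 0.994, Spearman rho = 0.991, n = 19 sequences), which would make sequences 1 to 10 the A and 11 to 19 the C chromosomes. Sequences 11 to 19 held 57 of the poor windows (66.3%) and 282 of the members (72.3%), where they held 63.6% of all windows and 53.1% of all merged H3K27me3 regions. The members per poor window were 4.95 on sequences 11 to 19 and 3.72 on sequences 1 to 10. Single sequences varied within both groups. Sequence 12 held 84 members in 11 poor windows and sequence 19 held 9 in 4, while sequence 3 held 50 in 8 and sequence 9 held 6 in 3. The median width of members was 921.5 bp on sequences 11 to 19 and 1023.5 bp on sequences 1 to 10, and was not set beside that of all regions there. Differences between the 2 groups of sequences were not tested.

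The first comparison asked how much H3K27me3 the poor windows carried. It was scarce there in every library. In seedling, peaks covered 2.24 and 1.80 kb per Mb of poor windows, against 27.9 and 23.2 kb per Mb of the others. In flower bud the values were 4.60 and 5.15 kb per Mb, against 45.5 and 51.6. In silique they were 3.61 and 1.15 kb per Mb, against 38.1 and 16.6. The highest value in poor windows, of flower bud replicate 2, lay below the lowest in other windows, of silique replicate 2. Between 18 and 38 of the 86 poor windows had no H3K27me3 peak base in a given library. Covered length per Mb was 11.6-fold lower in poor windows, from 9.90-fold in flower bud replicate 1 to 14.4-fold in silique replicate 2 (mean log2 ratio -3.53 ± 0.222, SD, n = 6 libraries). The 2-sided exact permutation test that flips signs over libraries gave p = 0.03125, the smallest its 64 arrangements allow (adjusted p = 0.03125 over 4 such tests). Peaks per Mb were lower as well, at 3.03 ± 0.979 against 28.1 ± 5.86 (SD, n = 6, mean log2 ratio -3.25, lower in 6 of 6 libraries, exact permutation p = 0.03125, adjusted p = 0.03125). All libraries share the same genome, the same windows and 1 merged control, so this test speaks for the spread between libraries and not for the placement of regions. A small difference shared by all libraries would give the same p.

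**Figure D1:**
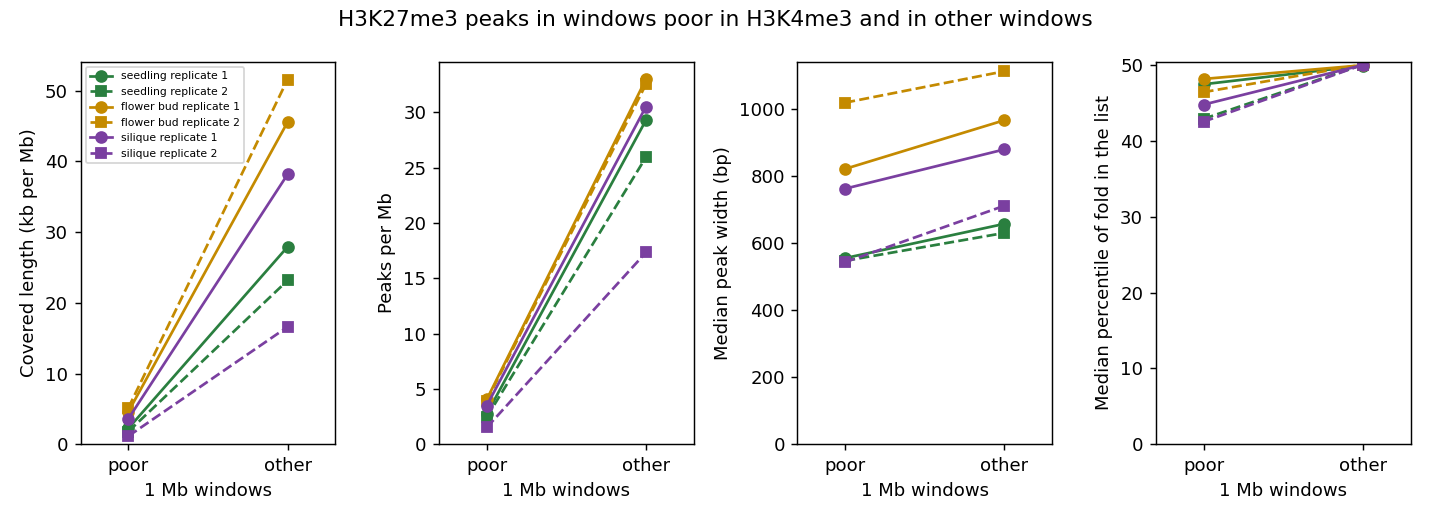
H3K27me3 in the 86 poor and the 783 other 1 Mb windows: covered length (kb per Mb), peaks per Mb, median peak width (bp) and median percentile of the fold enrichment within each list. Each line joins the 2 values of 1 library, coloured by tissue, with circles for replicate 1 and squares for replicate 2. All 6 lines rise in all 4 panels, steeply for covered length (3.09 against 33.8 kb per Mb on average) and slightly for the percentile (45.4 against 50.1).

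The scarcity held along single sequences. On each of the 18 sequences with poor windows, every library had less H3K27me3 per base in them than in the other windows of the same sequence. The ratio of poor to other windows was at most 0.233, on sequence 11, and on 3 sequences at least 1 library had no peak base in poor windows at all. The median log2 ratio over sequences, averaged over the libraries, was -3.85. H3K4me3, which chose the windows, was 7.69- to 8.10-fold lower in them across its 6 libraries, a value given for scale and without a test.

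Poor windows were the low end of a gradient. With the remaining windows split into 9 groups of 87 by their H3K4me3 and the poor windows as group 1, H3K27me3 covered length rose at each of 9 steps in each of the 6 libraries. As a ratio the first step was the steepest, with 2.86 to 3.82 times the covered length per Mb in group 2 as in the poor windows. At that step merged H3K4me3, which set the groups, went from 7.71 to 22.8 kb per Mb. From group 2 to group 10 H3K27me3 covered length rose 5.89- to 7.05-fold. Merged H3K27me3 covered 0.769 bases for each base of merged H3K4me3 in the poor windows, 0.747 in group 2, 0.959 to 1.01 in groups 3 to 9 and 0.811 in group 10. H3K4me3 set the groups, so these ratios are a description. H3K27me3 exceeded H3K4me3 in 30 of the 86 poor windows (34.9%) and in 301 of the 783 others (38.4%).

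**Figure D2:**
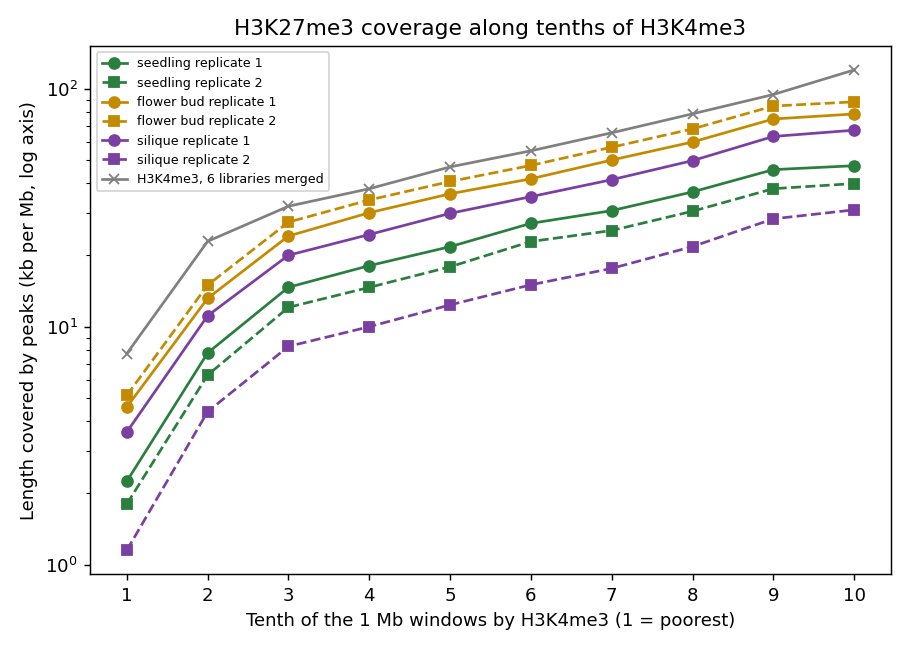
Length covered by H3K27me3 peaks (kb per Mb, log axis) in 10 groups of 1 Mb windows ranked by merged H3K4me3, group 1 being the poor windows. Coloured lines are the 6 H3K27me3 libraries and the grey line is merged H3K4me3, which set the ranking. All lines rise from left to right, and flower bud replicate 2 goes from 5.15 to 88.1 kb per Mb.

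Members were spread unevenly over the poor windows. A poor window held a median of 3 members, with a highest count of 17, and 15 windows held none, against a median of 35 regions in other windows, of which 1 held none. All 6 windows without any H3K4me3 also had no H3K27me3, so that every member shared its window with some H3K4me3. Whether reads could be placed in these 6 windows was not tested, so they need not lack the marks. The 13 windows with 10 or more members held 168 of the 390. The highest count was on sequence 14 from 30000001 to 31000000, with 17 members and 9 merged H3K4me3 regions, followed by sequence 11 from 21000001 to 22000000 and sequence 12 from 1000001 to 2000000, with 15 members and 15 H3K4me3 regions each. Of these members 2, 3 and 3, in that order, had a peak in all 6 H3K27me3 libraries. Over all poor windows 22.8% of members did, and 32.7% of all merged regions. The 28 windows with a poor window on both sides held 2.61 members each, and the 58 at the edge of a run or alone held 5.47. H3K4me3 was also lower in the former, at 4.71 against 9.26 kb per Mb.

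**Figure D3:**
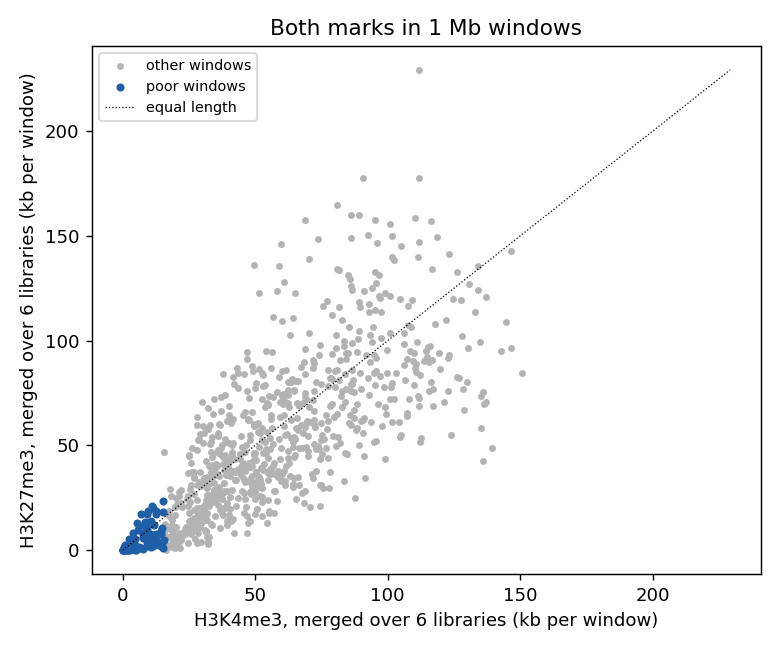
Merged H3K27me3 against merged H3K4me3 (kb per 1 Mb window) in 869 windows, with the 86 poor windows in blue, the others in grey and a dotted line where both marks cover equal length. Poor windows reach at most 23.5 kb of H3K27me3, and 15 of them hold no member.

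The second comparison asked whether H3K27me3 that did occur in poor windows was of the usual kind. Peaks there were somewhat narrower. Median peak widths in poor and other windows were 555 and 657 bp in seedling replicate 1, 547 and 630 bp in replicate 2, 821 and 966 bp in flower bud replicate 1, 1018.5 and 1112 bp in replicate 2, 762 and 879 bp in silique replicate 1, and 543 and 711 bp in replicate 2. Each library had the lower width in poor windows, with a mean log2 ratio of -0.23 ± 0.0864 (SD, n = 6, exact permutation p = 0.03125, adjusted p = 0.03125). They were also slightly weaker within their list. Fold enrichment is the authors' own value per peak, and the median percentile of peaks in poor windows was 42.6 to 48.2, against 49.98 to 50.1 in other windows (mean difference -4.63 ± 2.40 percentile points, SD, n = 6, lower in 6 of 6 libraries, exact permutation p = 0.03125, adjusted p = 0.03125). With the same number of peaks in each list the difference was -8.68. These medians rest on 125 to 334 peaks per library in poor windows, most of them at the same places in several libraries. Both p-values are the smallest the test allows and speak only for the spread between libraries. A small difference shared by all libraries would give the same p.

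Merged members were 250 to 7639 bp wide, with quartiles of 529.25 and 1572.25 bp around a median of 949 bp. The other merged regions had a median of 1053 bp and reached 22703 bp. Members of 5 kb or wider numbered 6 of 390 (1.54%), against 3.39% of other regions. Members under 1 kb were 203 (52.1%), against 47.9%. The members thus cover the usual range of widths up to 7.6 kb, with fewer at the wide end. The median gap to the nearest H3K27me3 region was 15564 bp for members and 3055 bp for other regions. A neighbour within 10 kb was found for 46.4% of members, against 72.7% of other regions. Regions were also fewer per Mb in poor windows, at 4.74 against 37.5. Gaps were not compared at equal density, so they do not show that members were isolated beyond their low number.

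Presence across libraries differed from the whole set of regions. A peak was found in all 6 H3K27me3 libraries for 89 members (22.8%), where the share over all merged regions was 32.7%. A peak in 1 library alone was found for 84 members (21.5%), against 16.5% of all regions. By width, of members 1 to 2 kb wide 27.9% were in all 6 libraries, against 39.5% of other regions of that width, and of those 2 to 5 kb wide 62.7% against 76.1%. At 5 kb and over it was 6 of 6 members against 96.5%. Below 1 kb the shares were close, at 10.5% and 9.04% from 500 bp upward and 0% and 0.192% below. Of the 84 members in 1 library alone, flower bud replicates 1 and 2 had 28.6% and 29.8% (all such regions 20.04% and 35.5%), silique replicate 1 had 23.8% (22.0%), and seedling replicates 1 and 2 had 13.1% and 4.76% (16.2% and 6.08%). Silique replicate 2, which had the fewest fragments, had 0 (0.226%).

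**Figure D4:**
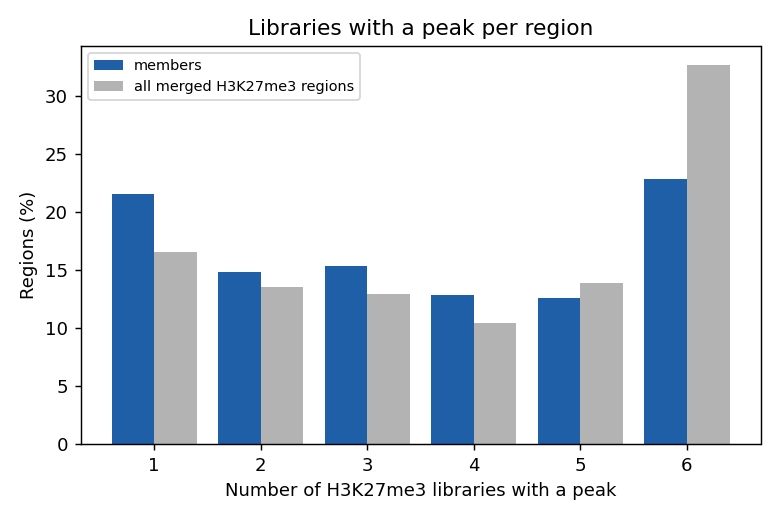
Share of regions (%) by the number of H3K27me3 libraries with a peak, for the 390 members (blue) and all 29441 merged regions (grey). Members stand at 22.8% with all 6 libraries, below the 32.7% of all regions, and at 21.5% with 1 library, above 16.5%.

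By median, members in all 6 libraries were wider and stronger than those in 1 library. Their median width was 1895 bp, against 358 bp for those in 1 library, and by construction joining peaks of more libraries can widen a merged region. Of the 89 members in all 6 libraries, 12 (13.5%) were under 1 kb. Members in 1 library had median percentiles of fold of 13.2 to 17.6 in the libraries that held any, against 59.8 to 74.2 for members in all 6. Among regions in all 6 libraries, members were below other regions in strength: in seedling replicates 1 and 2 the median percentile of fold was 66.9 and 59.8 for members and 76.1 and 72.5 for others, in flower bud 73.7 and 74.2 against 80.1 in both replicates, and in silique 69.8 and 48.2 against 78.6 and 59.8. The member medians were lower in all 6 libraries.

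**Figure D5:**
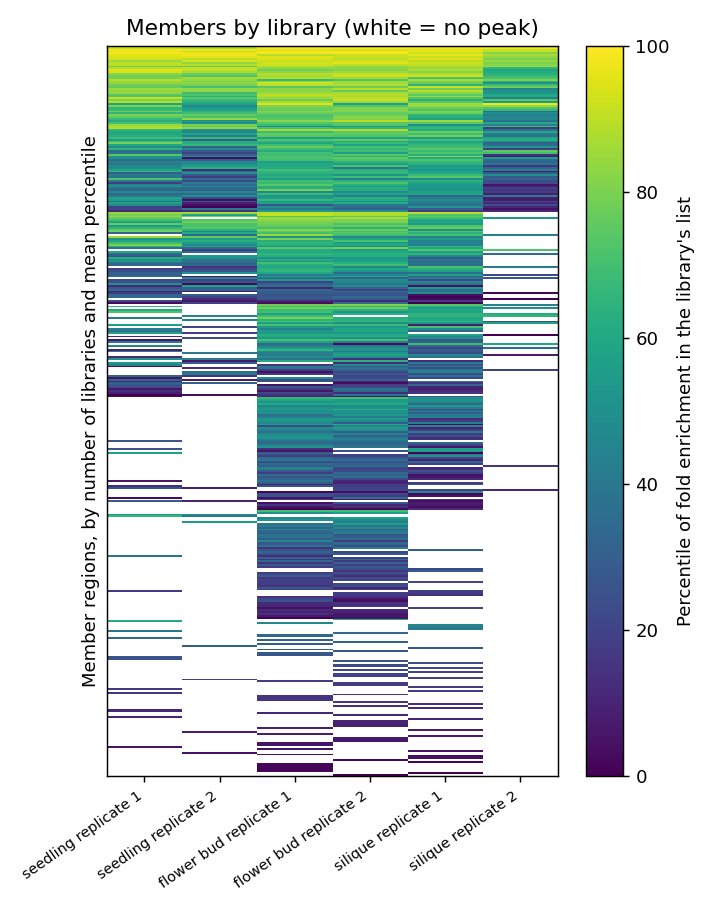
Each row is 1 of the 390 members and each column 1 H3K27me3 library, and colour gives the percentile (0 to 100) of the member's highest fold enrichment within that library's list, with white for no peak. Rows are ordered by number of libraries and mean percentile. The 89 members at the top have a peak in all columns, flower bud columns are filled in 81.0% and 82.1% of rows, and silique replicate 2 in 28.5%.

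The third comparison asked how members were distributed over tissues. Flower bud carried most of them. A region was taken as present in a tissue if both libraries had a peak and absent if neither had one. Flower bud had 285 of 390 members (73.1%, against 76.3% of all regions), seedling 140 (35.9%, against 48.3%) and silique 110 (28.2%, against 37.3%). The share was below that of all regions in each tissue, least so in flower bud. By library, peaks were found at 81.0% and 82.1% of members in flower bud, against 81.2% and 85.4% of all regions. In silique it was 68.2% and 28.5%, against 72.2% and 37.4%, and in seedling 47.9% and 40.8%, against 60.9% and 52.4%. The members' share was thus near that of all regions in flower bud replicate 1 and below it in the others. The order of the libraries by members was that by fragments except that the flower bud libraries were in the other order.

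Between tissues, most differences were flower bud peaks with none in another tissue. In flower bud and not in seedling were 107 members (27.4%, against 19.6% of all regions), and the reverse held for 3 (0.769%, against 1.58%). In flower bud and not in silique were 54 (13.8%, against 12.2%), and the reverse held for 0 (against 0.265%). A count of 0 of 390 allows a share of up to 0.769%, by counting error alone and with regions taken as independent. In silique and not in seedling were 11 (2.82%, against 2.14%), and the reverse held for 7 (1.79%, against 3.31%). Restricted to flower bud, with a peak in both of its libraries and none elsewhere, were 46 members (11.8%, against 8.44%), restricted to seedling 2 (0.513%, against 1.19%) and to silique 0 (against 0.19%). The excess over the share of all regions was largest for flower bud against seedling. Flower bud also had the deepest libraries, and the part of depth in these counts was not tested beyond equal list lengths. With equal numbers of peaks per list, 37 of 198 members (18.7%) had flower bud but no seedling peaks, against 11.6% of all regions, 14 (7.07%, against 3.95%) were restricted to flower bud, and silique had 21 (10.6%, against 7.19%) that seedling lacked. Leaving out a library judges its tissue on 1 library, which loosens the rule for members and for all regions. Without silique replicate 1, members in flower bud and not in silique were 47.7% (all regions 40.8%), those restricted to flower bud 26.0% (18.3%) and those with seedling but no silique peaks 13.8% (16.0%). Without silique replicate 2, members in silique and not in seedling were 22.6% (17.3%), those in silique and not in flower bud 5.64% (4.80%) and those restricted to silique 5.13% (3.83%). The silique counts thus depended on both of its libraries. Without flower bud replicates 1 and 2, members restricted to flower bud were 20% and 20.8% (15.03% and 13.3%), and those with no silique peak 23.0% and 23.7% (19.9% and 18.1%). Without seedling replicate 2, members restricted to seedling were 3.37% (4.02%), those lacking in flower bud 3.89% (4.85%) and those lacking in silique 5.96% (8.42%).

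The share of H3K27me3 that fell in poor windows was also compared between tissues. Of each library's covered length, poor windows held 0.846% and 0.819% (seedling), 1.06% and 1.05% (flower bud), and 0.995% and 0.731% (silique), while they made up 9.60% of the genome's length. The flower bud values were the highest and the silique values spanned the seedling ones. Ranked by fragments, from silique replicate 2 to flower bud replicate 1, the share rose at every step. Between tissues lay 58.6% of the sum of squares of the log2 ratio of poor to other windows, with an exact permutation p of 0.467 over the 15 arrangements of 6 libraries in 3 tissue pairs, where the smallest possible is 0.0667 (adjusted p = 0.467 over 3 tests). This percentage depended on the libraries used. It was 99.4% without silique replicate 1 and 99.0% without replicate 2. Without flower bud replicates 1 and 2 it was 44.9% and 47.3%, and without seedling replicates 1 and 2 it was 56.8% and 53.97%. A tissue left with 1 library has no spread within it by construction, and these values have no test. The rise without a silique library thus does not show how far the tissues differ. With equal numbers of peaks per list the shares were 0.759% and 0.719% (seedling), 0.930% and 0.929% (flower bud), and 0.862% and 0.731% (silique).

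The fourth comparison asked how well libraries matched each other in poor windows. The base-pair Jaccard index, the length shared by 2 libraries over their joint length, was lower in poor than in other windows for 15 of 15 pairs of libraries. Within a tissue it was 0.563 in seedling, 0.751 in flower bud and 0.311 in silique, against 0.655, 0.801 and 0.428 in other windows. Between tissues it ran from 0.221 to 0.629, against 0.317 to 0.692. On average pairs within tissues lay above pairs between tissues by 0.135 in poor windows (exact permutation p = 0.133, adjusted p = 0.2) and by 0.130 in other windows (exact permutation p = 0.0667, adjusted p = 0.2). Neither excess of pairs within tissues could pass 0.05, since the smallest p of this design is 0.0667. The index of the silique pair was below that of flower bud replicate 1 with silique replicate 1, which was 0.629. Unequal covered lengths cap the index. Silique replicates 1 and 2 covered 3.61 and 1.15 kb per Mb of poor windows, and 38.1 and 16.6 kb per Mb of other windows. A low index thus need not mean that peaks lay at different places, and the part of unequal lengths was not tested. In poor windows the excess was 0.0319 and 0.0203 without flower bud replicates 1 and 2, and 0.316 and 0.204 without silique replicates 1 and 2.

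A few members were among the strongest H3K27me3 regions of their lists. Folds below are given per library and rank peaks within a list, so no difference between tissues is read from them. The strongest across libraries was also the second widest, 6780 bp on sequence 11 from 21434848 to 21441627. Its folds were 54.7 and 43.7 for the seedling replicates, 63.0 and 77.8 for flower bud, and 68.3 and 32.5 for silique. Its percentile was 99.6 or higher in each list, and the closest H3K4me3 peak of any library was 31991 bp away. Next came, on sequence 3, the 3221 bp from 40203697 to 40206917. Seedling replicates reached folds of 21.4 and 17.2 there, flower bud 41.7 and 44.8, and silique 35.3 and 24.1. Its percentile within the lists ran from 87.8 to 98.7. The widest member, 7639 bp, lay close by, from 40216502 to 40224140. Its folds were 30.9 and 27.8 for seedling, 29.97 and 31.9 for flower bud, and 26.98 and 17.1 for silique.

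Others of this kind lay on sequence 12. One from 65029004 to 65032036 (3033 bp) reached folds of 27.2 and 18.1 (seedling), 36.3 and 44.1 (flower bud), and 30.3 and 17.0 (silique). Another from 65191006 to 65191908, of only 903 bp, reached 26.7 and 27.2 (seedling), 21.2 and 28.5 (flower bud), and 30.3 and 15.4 (silique), so a narrow region was among the strongest. These, and both on sequence 3, lie in short last windows of their sequences. That of sequence 12 had 62.1 kb of H3K4me3 per Mb, as given above. The 5 such windows held 31 members, of which 11 (35.5%) were in all 6 libraries, against 32.7% of all regions. With last windows left out and the poor windows chosen anew, members numbered 406, of which 22.4% were in all 6 libraries, and the 4 tests of poor against other windows kept their direction and call.

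The remaining wide members had middling folds. On sequence 11 the 6266 bp from 27450430 to 27456695 reached 11.4 and 8.45 (seedling), 13.8 and 14.9 (flower bud), and 15.4 and 8.13 (silique). On sequence 1 the 5877 bp from 20892086 to 20897962 reached 11.8 and 9.59 (seedling), 14.95 and 18.6 (flower bud), and 14.4 and 12.003 (silique). On sequence 12 the 5519 bp from 35096760 to 35102278 reached 7.62 and 9.35 (seedling), 10.9 and 12.5 (flower bud), and 10.2 and 7.53 (silique), and the nearest other H3K27me3 region was 210814 bp away. All of these had a peak in all 6 libraries.

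The members named for a difference between tissues ranked below the 5 strongest members in each list that held them. Those restricted to flower bud had a median width of 800 bp. The strongest, 428 bp of sequence 12 between 65096733 and 65097160, again in a short last window, had folds of 12.2 and 13.6. It was followed by 891 bp of sequence 12, starting at 44215562 and ending at 44216452, with folds of 8.54 and 10.2, all of it inside merged H3K4me3. The third was 985 bp of sequence 18, starting at 11764155 and ending at 11765139, where folds were 8.69 and 8.47. Restricted to seedling were 2 regions. On sequence 12 the 1388 bp from 44527090 to 44528477 had folds of 10.4 and 9.28. The other had 743 bp from 30599193 to 30599935 on sequence 14, where folds were 12.01 and 8.32.

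Other examples were shared by flower bud and silique and had no peak in seedling. On sequence 12 the 2195 bp from 45427609 to 45429803 reached 15.4 and 17.5 (flower bud) and 9.77 and 8.92 (silique). On sequence 1 the 1225 bp from 34005844 to 34007068, in a short last window, reached 15.3 and 18.6 (flower bud) and 13.8 and 8.63 (silique). Within its lists the first stood at percentiles of 46.9 to 78.7 and the second at 43.99 to 80.9. Of the 11 members in silique and not in seedling, 10 (90.9%) were in both flower bud libraries, against 86.5% of all such regions. The strongest of the 11 were on sequence 15. One, from 30190897 to 30191949, reached 11.4 and 10.3 (silique) and 9.37 and 12.02 (flower bud), and the other, from 42900722 to 42901843, reached 12.4 and 9.94 (silique) and 6.40 and 3.84 (flower bud). Absent from silique but shared by the other tissues were 813 bp of sequence 12 from 39906262 to 39907074, with 9.86 and 8.54 (seedling) and 6.81 and 4.87 (flower bud). The same held for 768 bp of sequence 18 from 17809933 to 17810700, with 10.4 and 6.77 (seedling) and 9.01 and 9.37 (flower bud).

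The last question was how members lay relative to H3K4me3, which is a description since H3K4me3 chose the windows. Few members touched it. Of 390 members, 31 (7.95%) shared at least 1 base with merged H3K4me3, against 14.4% of other regions. The shared length was 252 to 1308 bp with a median of 489 bp, and 5 members lay wholly inside H3K4me3. Shared length and full inclusion were not computed for other regions. The median distance to the nearest H3K4me3 region was 17208.5 bp for members and 4004 bp for other regions, and 42 members were over 100 kb from any, against 33 of the 29051 other regions. Among members in all 6 libraries, the farthest was that of 2064 bp on sequence 9, from 20282655 to 20284718, at 305589 bp from any H3K4me3 peak. It reached folds of 9.95 and 7.47 (seedling), 13.1 and 16.3 (flower bud), and 12.5 and 10.4 (silique). The next, of 1064 bp on sequence 6 from 14823771 to 14824834, was 161670 bp away and reached 10.3 and 5.49 (seedling), 11.6 and 11.3 (flower bud), and 8.50 and 6.03 (silique). The third, of 2909 bp on sequence 2 from 21186068 to 21188976, was 151519 bp away. Its folds were 26.7 and 19.3 (seedling), 15.2 and 18.9 (flower bud), and 20.2 and 9.99 (silique), at percentiles of 59.1 to 95.99 within the lists.

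Both marks in 1 tissue were rare at members. Of members present in seedling, 7 of 140 (5%) overlapped H3K4me3 bases found in both seedling libraries, against 7.07% of other regions. In flower bud it was 6 of 285 (2.11%, against 6.16%) and in silique 0 of 110 (against 6.60%). A count of 0 of 110 allows up to 2.73%, by counting error alone and with regions taken as independent. The windows were chosen for few H3K4me3 bases, so these shares are a description. The largest overlaps among members in all 6 libraries were 1308 bp on sequence 7 from 4304586 to 4307564 and 914 bp on sequence 11 from 27910282 to 27913371. The first reached folds of 9.43 and 7.47 (seedling), 14.5 and 14.3 (flower bud), and 12.2 and 9.35 (silique). The second reached 10.7 and 10.4 (seedling), 14.5 and 15.4 (flower bud), and 12.4 and 8.35 (silique). The third was the narrow region of sequence 12 that starts at 65191006, with 634 bp.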

How the data were processed

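Per the file headers, the authors called narrow peaks with MACS 2.2.7.1 in each library separately, from paired-end fragments (q cutoff 1e-05; duplicates reduced to 1 fragment) against 1 merged control of 12042843 fragments. Per the submitters' processing notes, BWA, SAMtools and GATK were also used. The name of the genome build is not given in the sources used here, beyond the sequence identifiers in the peak lists. The deposited pileup is a signal (fragment coverage at the summit), the deposited p-value and q-value are on a −log10 scale, and the deposited fold enrichment is the authors' ratio of summit pileup to local control, used to describe and rank peaks within 1 list.

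Coordinates are 1-based, as deposited. Peaks were merged per mark where they shared 1 bp. Windows ran up to the highest peak end in any list, so 5 poor windows are short, and the tenth was rounded down. Other sequences, which held no more than 0.109% of any list, were left out. Covered length counts bases in windows, and peak counts, widths and percentiles take a peak's window from its midpoint.

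Named regions are the 5 widest members, the 5 in all 6 libraries with the highest lowest fold, per tissue the 3 restricted members and per pair of tissues and direction the 2 members with the highest lower fold, and, among members in all 6 libraries, the 3 farthest from H3K4me3 and the 3 sharing the most bases with it, plus the 3 windows with the most members. The members, the lists and the tests were chosen with earlier results of these data known. Exact permutation tests used a threshold of 0.05 and Benjamini-Hochberg adjustment within each family. Scripts were tested on simulated data for recovery of planted differences in peak density and width. On simulated lists with no planted difference, whose libraries shared regions, the test that flips signs over libraries also returned its smallest p. Its p-values therefore do not separate a small difference from none. The scripts used Python 3.11.15, numpy 2.4.6, scipy 1.17.1, pandas 2.3.3 and matplotlib 3.10.9. Alternatives covered window size and share, last windows, single sequences, list length, q, presence by cover and libraries left out.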

Additional observations from a re-analysis of the deposited data

How the results depend on the processing

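The 4 tests of poor against other windows kept direction and call under windows of 0.5 and 2 Mb, 5% and 20% of windows, last windows left out, values within sequences (a sequence with no peak in poor windows of a library was skipped for it), equal numbers of peaks per list (13570), −log10 q of 10 or more, and 3 settings chosen after seeing the data (87 windows, and equal numbers of peaks with last windows left out or within sequences). All 6 libraries had the same sign in each of these settings, which by itself gives the smallest possible p. Without 1 H3K27me3 library the smallest possible p is above 0.05, and the values ran from -3.58 to -3.47 for covered length, -3.30 to -3.20 for peaks, -0.26 to -0.20 for width and -5.20 to -4.06 for percentile. Choosing windows without 1 H3K4me3 library gave -3.56 to -3.40, -3.29 to -3.13, -0.24 to -0.21 and -4.88 to -3.54. The number of members was 106 with 5% of windows, 1423 with 20%, 198 with equal numbers of peaks and 204 when last windows were also left out.

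Shares of all regions under the same setting stand in brackets. With 5% of windows 16.0% (32.7%) of members were in all 6 libraries, and with 20% of windows 22.6% (19.6%) were in flower bud but lacking in seedling. With equal numbers of peaks 30.8% (44.4%) were in all 6. Restricted to seedling, flower bud and silique were 2.02% (2.53%), 7.07% (3.95%) and 1.52% (1.53%). In seedling but lacking in flower bud or silique were 2.53% (3.86%) and 4.55% (4.78%), in flower bud but lacking in seedling 18.7% (11.6%), and in silique but lacking in seedling or flower bud 10.6% (7.19%) and 1.52% (2.54%). With last windows also left out the members' values were 30.4%, 1.96%, 7.35%, 1.47%, 2.94%, 3.92%, 17.6%, 8.82% and 1.96%, with the same shares of all regions. At −log10 q of 10 or more 18.8% (29.8%) were in all 6, 16.4% (10.2%) restricted to flower bud and 19.05% (13.8%) in flower bud but lacking in silique. With peaks covering 50% of the region these were 5.90% (10.5%), 19.7% (14.9%) and 22.3% (19.1%), and 40.3% (34.95%) were in flower bud but lacking in seedling. The cause of these shifts was not tested, beyond the shorter lists or stricter presence that the settings impose.

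Without 1 library of either mark, members numbered 369 to 426 and the share in all remaining libraries was 22.7% to 33.1% (32.7% to 44.2%). The share restricted to a tissue was 0.469% to 3.37% for seedling (1.19% to 4.02%), 11.6% to 26.0% for flower bud (8.44% to 18.3%) and 0% to 5.13% for silique (0.190% to 3.83%). Present in one tissue and lacking in another were 0.761% to 3.89% (1.58% to 4.85%) for seedling and flower bud, 1.58% to 13.8% (3.31% to 16.0%) for seedling and silique, 26.9% to 37.8% (19.6% to 28.6%) for flower bud and seedling, 13.4% to 47.7% (12.2% to 40.8%) for flower bud and silique, 2.58% to 22.6% (2.14% to 17.3%) for silique and seedling, and 0% to 5.64% (0.265% to 4.80%) for silique and flower bud. No paired analysis was possible because the labels give no replicate numbers shared between groups. A region without a peak was not detected at that library's depth, lowest in silique replicate 2, and the part of depth was not tested beyond equal list lengths.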
